A study of Mus musculus with 9 samples.

Results

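Gene expression was compared between hearts of Sting-/- mice given doxorubicin (Sting-/- DOX) and hearts of wild-type mice given saline (WT saline), with 3 libraries in each group. These are 6 of the 9 libraries of the series, and the other 3 are from wild-type mice given doxorubicin (WT DOX), whose levels are set beside the comparison where a result calls for them, with no test of the DOX groups against each other. Genotype and treatment differ together between the groups compared, so the loss of Sting and the drug cannot be told apart, and Sting-/- hearts without the drug are not analysed here. The labels give heart as the tissue and no strain, age, sex, dose or time, and the design text of the series speaks of a low dose that brings on a chronic cardiomyopathy. Nothing in them states whether each library is a separate animal, and the p-values therefore measure only how far these samples spread, which may be technical spread. Of 16873 genes in the files, 12520 averaged 1 FPKM or more in these 6 libraries and were tested. FPKM (fragments per kilobase of transcript per mapped fragments) corrects a gene's fragments for its length and for the size of its library.

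Doxorubicin is an anthracycline that poisons topoisomerase II and can injure the heart, where cardiomyocytes, packed with sarcomeres and mitochondria, make up most of the tissue mass beside fibroblasts, endothelial cells, mural cells and macrophages. STING is an adaptor of the endoplasmic reticulum that answers the cyclic dinucleotide made by the DNA sensor cGAS and activates the kinase TBK1, the transcription factor IRF3 and NF-kappaB, which switch on interferons and inflammatory genes. A heart that loses muscle is known to turn on fetal and atrial genes and to lay down collagen.

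Sting1, the deleted gene (gene ID 72512), was at 5.10, 5.43 and 5.93 FPKM in the saline libraries and 0.06, 0 and 0 FPKM in the Sting-/- DOX libraries. The groups were far apart, and the libraries labelled Sting-/- were at or near 0. WT DOX libraries had 17.5, 18.0 and 17.8 FPKM. The deposited values keep no read counts. A rough estimate from the steps between low values put the depth at 12150000 to 12550000 fragments in the saline libraries and 8550000 to 8950000 in Sting-/- DOX. In each library the 10 top genes together held 16.5% to 16.6% of all FPKM in saline and 8.09% to 8.44% in Sting-/- DOX. Pearson's r across genes was 0.9947 to 0.9968 within groups and 0.770 to 0.777 between the groups compared, and genes are not independent replicates. At the estimated depth each pair of libraries in the groups compared differed beyond counting noise in 5 to 33 genes of 430 to 477 looked at, where counting alone gives fewer than 1. Among genes at 20 FPKM or more whose libraries 1 and 2 differed by at least 1.25 times, library 3 lay between them in 57 of 61 genes in WT saline, 131 of 133 in WT DOX and 31 of 39 in Sting-/- DOX. By the same measure library 1 lay between in 9 of 27 genes and library 2 in 9 of 14 in WT saline. For libraries 1 and 2 these counts were 11 of 49 and 6 of 54 in WT DOX, and 13 of 20 and 38 of 49 in Sting-/- DOX. Each count rests on genes chosen by the difference of the other libraries of the group, which favours a position between them in every case. Whether the third libraries are independent was not tested. Without saline library 3, 7759 genes were higher and 3103 lower, beside 7889 and 3211 with it.

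Most of the genes tested differed between the groups. With limma on log2(FPKM + 1) and a Benjamini-Hochberg adjusted p under 0.05, 7889 genes (63.0%) were higher in Sting-/- DOX than in WT saline and 3211 (25.6%) were lower, 88.7% in all. At least 2-fold on this scale, where the added 1 shrinks the change of genes at low levels, were 3868 higher (30.9%) and 1399 lower (11.2%). At least 8-fold were 218 higher and 125 lower. The ranges of the groups did not overlap for 11176 genes (89.3%), and 1420 genes (11.3%) were not called. An exact permutation test of 3 against 3 libraries cannot go below p = 0.1, so calls come from the fit across all genes. The median log2 change of all genes was 0.50, with the middle of the genes, from the 25th to the 75th percentile, between -0.197 and 1.18. Median-ratio scaling moved this median to 0.0107 and the split of the calls to 5403 higher and 5347 lower, 50.3% higher in place of 71.1%, and quantile normalization gave 51.8% higher. Because so large a share of genes differed, the count of a list is read beside 63.0% higher and 25.6% lower, and its median beside 0.50.

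**Figure D1:**
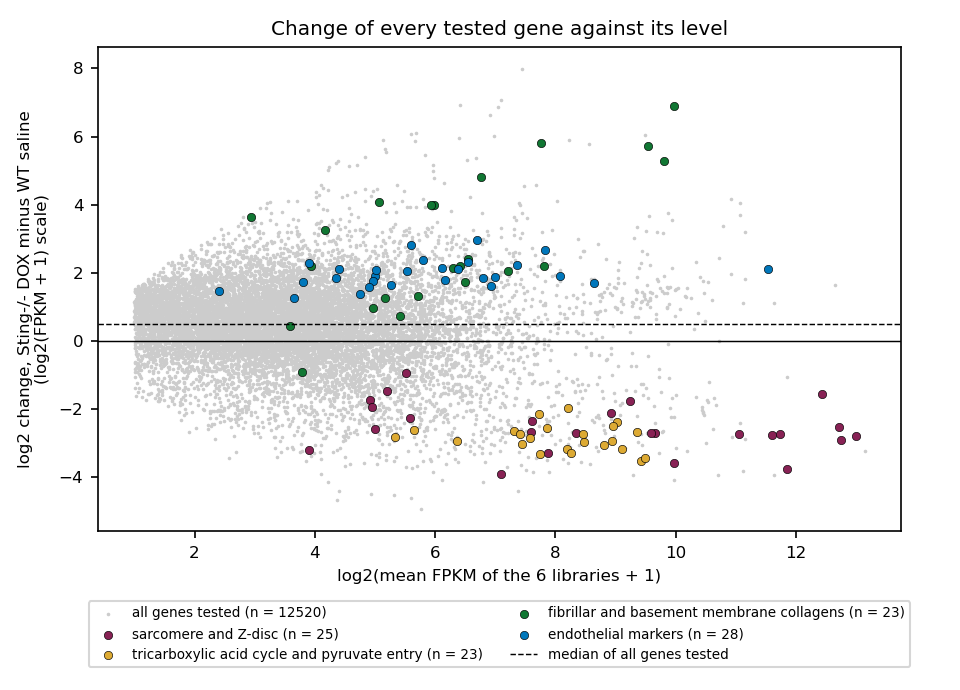
Log2 change (Sting-/- DOX minus WT saline, log2(FPKM + 1) scale) of the 12520 tested genes against the log2 of their mean FPKM + 1 over the 6 libraries, with 4 gene lists coloured. The 25 sarcomere genes and 23 tricarboxylic acid cycle genes lie below 0, the 28 endothelial markers lie above 0, and 22 of the 23 collagen and basement membrane genes lie above 0, the dashed line being the all-gene median of 0.50.

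Genes of the contractile apparatus were lower in the Sting-/- DOX hearts. All 25 tested sarcomere and Z-disc genes fell, 24 of them at least 2-fold, with a median log2 change of -2.68. The summed level of the list was 76470 to 77390 FPKM in the saline libraries, 55400 to 59480 FPKM in the WT DOX libraries and 12370 to 12920 FPKM in the Sting-/- DOX libraries. In bulk tissue, fewer cells of a type and less RNA per cell cannot be told apart. Myh6, the main myosin heavy chain of the adult mouse ventricle, was at 5463, 5330.1 and 5509.9 FPKM in the saline libraries and 757, 818 and 845 FPKM in the Sting-/- DOX libraries. Its groups did not overlap, and the fall was 6.74-fold (log2 change -2.75, SE 0.0415, limma adjusted p = 4.71e-12). Myl2, the ventricular regulatory light chain, went from 14297 ± 485 to 2061 ± 119.8 FPKM (SD, n = 3 each), and Tnnt2, cardiac troponin T, from 8308 ± 312 to 2827 ± 171 FPKM. The heart label is borne out by these genes, which stayed among the abundant transcripts of both groups. Tnni3, cardiac troponin I, fell 6.56-fold. The deepest falls of the list were those of Myom2, an M-band protein (-3.91), Myl3, the essential light chain (-3.76), Tcap, the titin cap (-3.56), Lmod2, which lengthens thin filaments (-3.28), and Myot, a Z-disc protein (-3.19).

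One promoter of the list is shown because it holds a CArG box, the site that serum response factor binds in many muscle genes. The capitals mark the match in the 250 bases before the RefSeq start of Myl3 (build GRCm38.p6, both strands searched).
Myl3 (chr9:110763428-110763677, strand +): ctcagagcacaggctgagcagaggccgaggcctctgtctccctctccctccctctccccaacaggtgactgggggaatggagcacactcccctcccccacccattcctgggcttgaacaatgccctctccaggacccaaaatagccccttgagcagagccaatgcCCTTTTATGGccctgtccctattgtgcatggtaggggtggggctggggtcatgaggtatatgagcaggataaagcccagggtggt
The match starts 85 bases before the gene start. A CArG box was found in 4 of the 20 sarcomere promoters that could be looked up and in 1.23% of the 10015 promoters of tested genes, and a match is a description of letters, not of binding.

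Calcium handling and excitation genes were lower too. In the calcium cycling list 16 of 18 genes fell and 2 rose, with a median of -2.33. Atp2a2, the SERCA2 pump that refills the sarcoplasmic reticulum, was at 3214, 3091 and 3146 FPKM in the saline libraries and 196, 207 and 210.1 FPKM in the Sting-/- DOX libraries. That is 15.4-fold lower, with groups far apart (log2 change -3.94, SE 0.0351, limma adjusted p = 6.42e-13), and the WT DOX mean was 1694 FPKM. Its inhibitor Pln, phospholamban, went from 4160 ± 122 to 294 ± 5.46 FPKM, and Ryr2, the calcium release channel, from 95.9 ± 2.41 to 9.33 ± 0.325 FPKM. Hrc, a calcium-binding protein of the reticulum, and Srl, sarcalumenin, fell by 14.9-fold and 12.8-fold. The genes that rose were Fkbp1b, a ryanodine receptor partner, from 1.06 to 7.61 FPKM, and Stim1, the sensor of store-operated entry, from 5.63 to 13.8 FPKM. Of 20 ion channel and gap junction genes, 17 fell and 3 rose. Kcnj3 and Kcnj5, the channel subunits that acetylcholine opens in atria and nodes, fell, with log2 changes of -3.36 and -3.14. Kcnj11, the pore of the ATP-sensitive potassium channel, and Kcnk3, a background potassium channel, fell likewise (-3.02 and -2.81), and Scn4b, a sodium channel subunit, went from 10.7 to 0.217 FPKM. The genes that rose were Gja5, the connexin of atria, conduction tissue and arterial endothelium (from 1.77 to 10.6 FPKM), Kcna5, an atrial potassium channel (from 6.91 to 24.5 FPKM), and Gjc1, a connexin of conduction tissue (from 10.5 to 19.1 FPKM). In the intercalated disc and costamere list 15 of 17 fell, among them Dsp, desmoplakin (-2.93). Jup, plakoglobin, and Vcl, vinculin, were called higher at changes of 0.25 and 0.17, and with median-ratio scaling they were -0.31 and -0.38, Vcl also being negative with quantile normalization (-0.12).

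Stores of energy and oxygen in muscle were lower in each gene tested. All 13 members of the energy buffering list fell, with a median of -3.0. Mb, myoglobin, the most abundant transcript of the saline hearts, went from 16334 ± 89.7 to 1762 ± 36.3 FPKM, a fall of 9.27-fold. Ckmt2, mitochondrial creatine kinase, went from 1887 ± 50.8 to 112 ± 4.27 FPKM, Fabp3, the fatty acid carrier of cardiomyocytes, from 5971 ± 81.0 to 390.4 ± 7.56 FPKM, and Slc2a4, the insulin-responsive glucose transporter, from 217 ± 2.49 to 21.5 ± 1.42 FPKM.

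Transcription factors of cardiac identity were lower as a group. Of 16 tested, 14 fell, 1 rose and 1 was not called, and the median was -1.30. Hopx, a homeodomain protein of cardiac growth, went from 271 ± 13.6 to 20.2 ± 2.12 FPKM. Myocd, the coactivator of serum response factor, had a log2 change of -2.18, Prox1 of -2.08, Tbx5 of -1.79 and Irx3 of -1.48. Tbx20, which did not pass, was at 12.3 and 11.1 FPKM (log2 change -0.13, 95% interval -0.27 to 0.01, limma adjusted p = 0.0795), and was called lower with median-ratio scaling (-0.66). Mef2c was called higher at 0.16 and was -0.38 after median-ratio scaling and -0.27 after quantile normalization, and it was not called without saline library 1 or Sting-/- DOX library 3 (limma adjusted p = 0.051 and 0.0644). Regulators of oxidative metabolism showed 12 of 17 lower. Ppargc1a, the PGC-1alpha coactivator of mitochondrial genes, was at 25.3, 25.7 and 25.5 FPKM in the saline libraries and 1.28, 1.23 and 1.41 FPKM in the Sting-/- DOX libraries. No value of either group came near the other, and the WT DOX mean was 16.1 FPKM. Perm1, its muscle effector, had a log2 change of -3.67, Klf15 of -3.03, Ppara, the receptor that drives fatty acid oxidation genes, of -2.69 and Rxrg of -2.50. Pparg, the receptor of fat cells, macrophages and endothelium, rose from 6.94 to 21.1 FPKM, as did Nrf1, from 4.19 to 9.02 FPKM, and Nr1h3, the oxysterol receptor, from 7.30 to 11.6 FPKM, although Nr1h3 changed by only 0.08 with median-ratio scaling.

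Atrial and fetal genes did not move as one group. Of 14 tested, 9 rose and 5 fell, beside 63.0% higher and 25.6% lower among all genes. Their median was 0.48 beside 0.50 for all genes, and with median-ratio scaling 6 rose and 6 fell. Nppa, atrial natriuretic peptide, was at 182, 212 and 215 FPKM in the saline libraries and 3646, 3629.8 and 3748 FPKM in the Sting-/- DOX libraries. The 18.1-fold rise was shared by all libraries (log2 change 4.18, SE 0.0579, limma adjusted p = 3.21e-12), and WT DOX libraries held 2614, 2958 and 2822 FPKM. Genes of the atrial sarcomere and reticulum rose from low levels, namely Myl7 from 0.487 ± 0.00577 to 32.9 ± 4.07 FPKM, Myl4 from 1.74 ± 0.214 to 28.9 ± 2.75 FPKM and Sln, sarcolipin, from 0.123 ± 0.107 to 11.1 ± 3.69 FPKM. Tnni1, the slow skeletal troponin I of the fetal heart, was at 0.09, 0.09 and 0 FPKM in the saline libraries and 2.63, 1.35 and 2.99 FPKM in the Sting-/- DOX libraries, low levels with no overlap. Clu, clusterin, rose from 383 to 1291 FPKM. Nppb, brain natriuretic peptide and the usual partner of Nppa in strained hearts, was called higher at only 0.37, from 230.2 ± 21.4 to 298 ± 15.9 FPKM, while WT DOX hearts had 1277 FPKM, and with median-ratio scaling it was -0.20. Myh7, the beta myosin heavy chain, was at 34.6 and 51.1 FPKM (0.55, and -0.01 with median-ratio scaling). The stress genes Ankrd1, Xirp2 and Acta1 fell, Ankrd1, a stretch-responsive nuclear protein, from 1049.6 ± 108 to 348 ± 16.8 FPKM against 2933 FPKM in WT DOX.

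**Figure D2:**
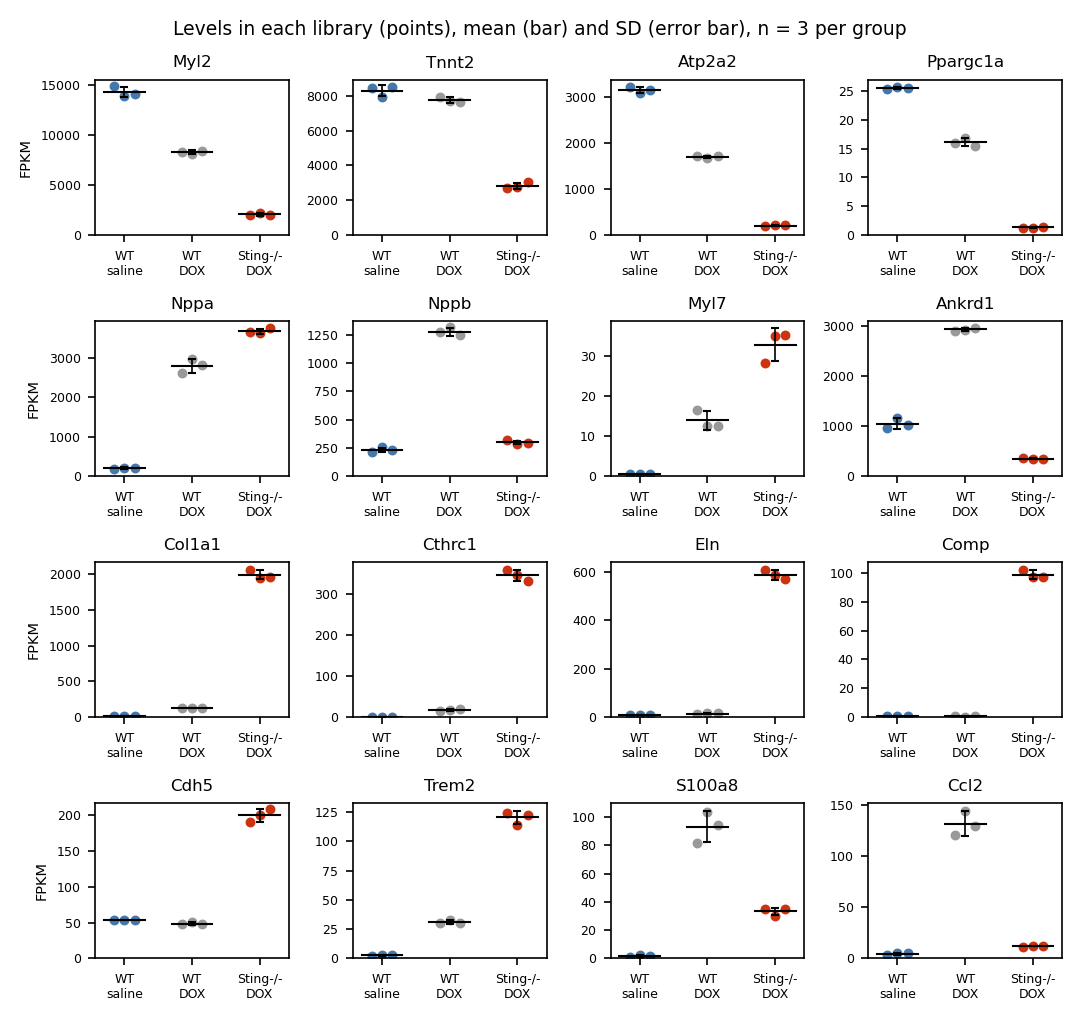
FPKM of 16 genes in each library of WT saline, WT DOX and Sting-/- DOX (points), with the mean (bar) and SD (error bar) of 3 libraries, each panel on its own linear axis from 0. Myl2, Tnnt2, Atp2a2 and Ppargc1a are lowest in Sting-/- DOX, Nppa and Myl7 are highest there, Nppb and Ankrd1 are highest in WT DOX, Col1a1, Cthrc1, Eln, Comp, Cdh5 and Trem2 are highest in Sting-/- DOX, and S100a8 and Ccl2 are highest in WT DOX.

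Nuclear genes of the mitochondrion fell in nearly every case. All 26 tested subunits of complex I and all 29 of complexes II to V were lower, with medians of -1.97 and -2.24. No mitochondrially encoded gene is among those analysed here. Ndufs1, the largest subunit of complex I, went from 339.9 ± 5.52 to 31.4 ± 1.61 FPKM, Sdha, the flavoprotein of complex II, from 557 ± 20.2 to 56.4 ± 0.964 FPKM, and Atp5a1, the alpha subunit of ATP synthase, from 2109.5 ± 33.2 to 227 ± 4.95 FPKM. Among other subunits, Ndufa10 and Uqcrc2 had log2 changes of -2.85 and -3.11. All 23 genes of the tricarboxylic acid cycle and pyruvate entry fell, Mdh1, malate dehydrogenase, from 1311 ± 17.2 to 122 ± 4.02 FPKM and Idh2, an isocitrate dehydrogenase, from 990.5 ± 47.2 to 110 ± 5.69 FPKM. Of 30 genes of fatty acid use, 28 fell with a median of -3.04. Dgat2, which makes triglyceride, went from 209 ± 12.2 to 10.9 ± 0.822 FPKM, Hadhb, of the trifunctional protein, from 1174 ± 16.3 to 76.7 ± 3.14 FPKM, and Acsl1, which activates fatty acids, had a log2 change of -3.84. Pdk4, the kinase that inhibits pyruvate dehydrogenase in fasting, went from 129 ± 6.97 to 6.76 ± 0.670 FPKM, against 134 FPKM in WT DOX. Cpt1b, the muscle carnitine transferase, went from 288 to 75.02 FPKM, whereas Cpt1a, the form of liver and many other cells, rose from 18.4 to 26.9 FPKM, a change of -0.02 with median-ratio scaling. Of 21 genes of mitochondrial dynamics and mitophagy, 18 fell, led by Immt, of the cristae, and Mfn2 and Opa1, which fuse mitochondria (-2.64, -2.57 and -2.47). Bnip3l, a mitophagy receptor also used by red cell precursors, rose from 28.2 to 55.0 FPKM.

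Glycolytic genes went mostly down. Of 24 genes, 18 fell, 5 rose and 1 was not called, with a median of -1.17. Forms typical of muscle were among those that fell, Eno3 from 1031 ± 11.4 to 116 ± 6.74 FPKM, Pfkm from 379.9 ± 12.2 to 54.9 ± 2.88 FPKM and Ldhb, the lactate dehydrogenase of the heart, from 1532 ± 23.5 to 158 ± 11 FPKM. Fbp2, muscle fructose bisphosphatase, went from 39.5 ± 2.34 to 0.913 ± 0.284 FPKM. Eno1, the enolase found in most cells, rose from 117 ± 2.85 to 322 ± 2.36 FPKM, Pgam1 rose from 43.2 to 101.4 FPKM and Pfkfb3, a glycolytic activator, from 4.23 to 9.33 FPKM.

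Matrix genes were among the largest rises of the comparison. Of 23 collagen and basement membrane genes, 22 rose and 1 fell, with a median of 2.2. Col1a1, the alpha 1 chain of collagen I, was at 15.1, 16.1 and 15.6 FPKM in the saline libraries and 2059, 1942 and 1962 FPKM in the Sting-/- DOX libraries. This is a 128-fold rise with SE 0.0389 on a log2 change of 6.91 (limma adjusted p = 7.93e-14), and WT DOX libraries held 125, 127 and 126 FPKM. Col3a1 went from 44.0 ± 1.33 to 1752 ± 55.8 FPKM and Fn1, fibronectin, from 6.59 ± 0.545 to 427 ± 23.8 FPKM. The gene that fell was Lama2, the laminin chain of muscle fibres, from 17.1 to 8.64 FPKM. Of 17 matricellular proteins 16 rose and none fell, and with median-ratio scaling 15 rose and 2 fell. Cthrc1, a secreted protein of activated fibroblasts, had the largest change of all named genes and was at 0.30, 0.31 and 0.49 FPKM in the saline libraries and 358, 346 and 330.2 FPKM in the Sting-/- DOX libraries. Postn, periostin, went from 20.5 ± 2.14 to 1424 ± 70.5 FPKM. Spp1, osteopontin, went from 1.38 ± 0.300 to 237 ± 15.7 FPKM, against 572 FPKM in WT DOX. Thbs1, thrombospondin 1, and Ccn5 rose by 5.45 and 5.31 on the log2 scale. Tnxb was not called, at 11.6 and 11.7 FPKM.

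All 21 elastic fibre genes rose, and their median was 3.24. With median-ratio scaling 18 rose and 1 fell. Eln, elastin, was at 8.52, 9.61 and 8.41 FPKM in the saline libraries and 609, 585 and 568 FPKM in the Sting-/- DOX libraries. WT DOX libraries held 13.4, 15.97 and 15.7 FPKM. Lox, which crosslinks collagen and elastin, went from 1.02 ± 0.220 to 270.1 ± 13.4 FPKM, Mfap4, a microfibril protein, from 12.6 ± 1.63 to 741 ± 36.1 FPKM and Ltbp2 from 0.410 ± 0.101 to 94.2 ± 3.48 FPKM. All 10 small leucine-rich proteoglycans were called higher, Bgn, biglycan, from 129 to 1754 FPKM and Fmod, fibromodulin, from 0.523 ± 0.176 to 70.6 ± 1.09 FPKM, although with median-ratio scaling 8 were higher and 1 was lower. All 19 tested matrix proteases and inhibitors rose, and without the filter on low values 20 of 21 rose and 1 fell. With median-ratio scaling 18 of the 19 rose and 1 fell, as with quantile normalization. Timp1, a protease inhibitor, went from 2.89 ± 0.811 to 249.1 ± 9.23 FPKM, against 315 FPKM in WT DOX, and Mmp14, a membrane protease, from 4.51 to 135 FPKM. Genes better known from cartilage and tendon were higher in 12 of 13 tested cases, with 20 measured, and most of these passed the filter on low values only through the Sting-/- DOX libraries, so the count is a description only. Comp, cartilage oligomeric matrix protein, was at 0.52, 0.87 and 0.74 FPKM in the saline libraries and 102, 97.1 and 97.1 FPKM in the Sting-/- DOX libraries. The saline and WT DOX libraries were all below 1 FPKM for it. Col11a1 went from 0.03 to 39.6 FPKM and Sox9, the chondrocyte transcription factor also needed in heart valves, from 0.393 to 11.03 FPKM. Matn1, a matrilin of mature cartilage, was below 0.1 FPKM in the mean of every group. In the bone list Runx2 rose from 0.187 to 2.10 FPKM, Alpl was not called, and the mean of Ibsp, bone sialoprotein, was 0.0167 and 0 FPKM.

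Signals that act on mesenchymal cells rose with the matrix. Of 18 TGF-beta family genes, 17 rose, Tgfb3 from 4.70 ± 0.292 to 85.7 ± 3.85 FPKM, Ltbp3, which holds latent TGF-beta in the matrix, from 9.98 to 71.4 FPKM and Gdf15, a stress cytokine, from 0.613 ± 0.136 to 14.3 ± 1.16 FPKM. Tgfbr3, betaglycan, fell. Of 11 tested Wnt genes, of 19 measured, 8 rose, 2 fell and 1 was not called. The largest rises were those of secreted Wnt modulators, Sfrp2 from 1.25 ± 0.125 to 262 ± 7.54 FPKM, Sfrp1 from 3.40 ± 0.442 to 121 ± 5.78 FPKM, Dkk3 from 0.640 to 30.8 FPKM and Frzb from 1.27 to 32.1 FPKM. The ligand Wnt5a and the inhibitor Wif1 fell, with log2 changes of -0.51 and -0.39, and Axin2, a readout of beta-catenin signalling, was not called (1.14 and 0.877 FPKM) but was called lower after median-ratio scaling (-0.48) and quantile normalization (-0.73). Of 19 growth factor genes, 16 rose, Ptn, pleiotrophin, from 1.66 ± 0.215 to 165 ± 5.57 FPKM and its relative Mdk, midkine, from 2.89 ± 0.697 to 120.4 ± 2.58 FPKM. Igfbp7 went from 162 ± 12.4 to 1482 ± 57.9 FPKM. Fgf1 and Fgf16, growth factors of cardiomyocytes, fell, with log2 changes of -2.38 and -2.03.

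Genes best known from development rose as well. All 9 tested imprinted fetal growth genes were higher. Without the filter on low values 10 of the 12 measured were higher and 1 was lower. Igf2 rose from 8.83 ± 0.685 to 74.2 ± 3.43 FPKM and Mest from 4.72 ± 0.243 to 51.8 ± 1.72 FPKM. Cdkn1c, a brake on the cell cycle, rose from 11.4 ± 0.558 to 66.8 ± 2.51 FPKM. Of 18 tested developmental transcription factors of the mesenchyme, of 23 measured, 17 rose. Meox1, a factor of activated fibroblasts, went from 8.40 ± 1.29 to 84.8 ± 5.31 FPKM, Foxc2 from 0.697 to 14.2 FPKM, Snai1 from 1.80 to 22.7 FPKM and Prrx2 from 0.08 to 7.19 FPKM. Prrx1, its close relative, fell (log2 change -0.42). The 6 Hox genes that passed the filter on low values were all higher, with Hoxb2 from 1.02 to 6.55 FPKM and Hoxd8 from 0.590 to 3.93 FPKM. They were 6 of 21 measured, and genes this low pass mainly through the group where they are high.

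**Figure D3:**
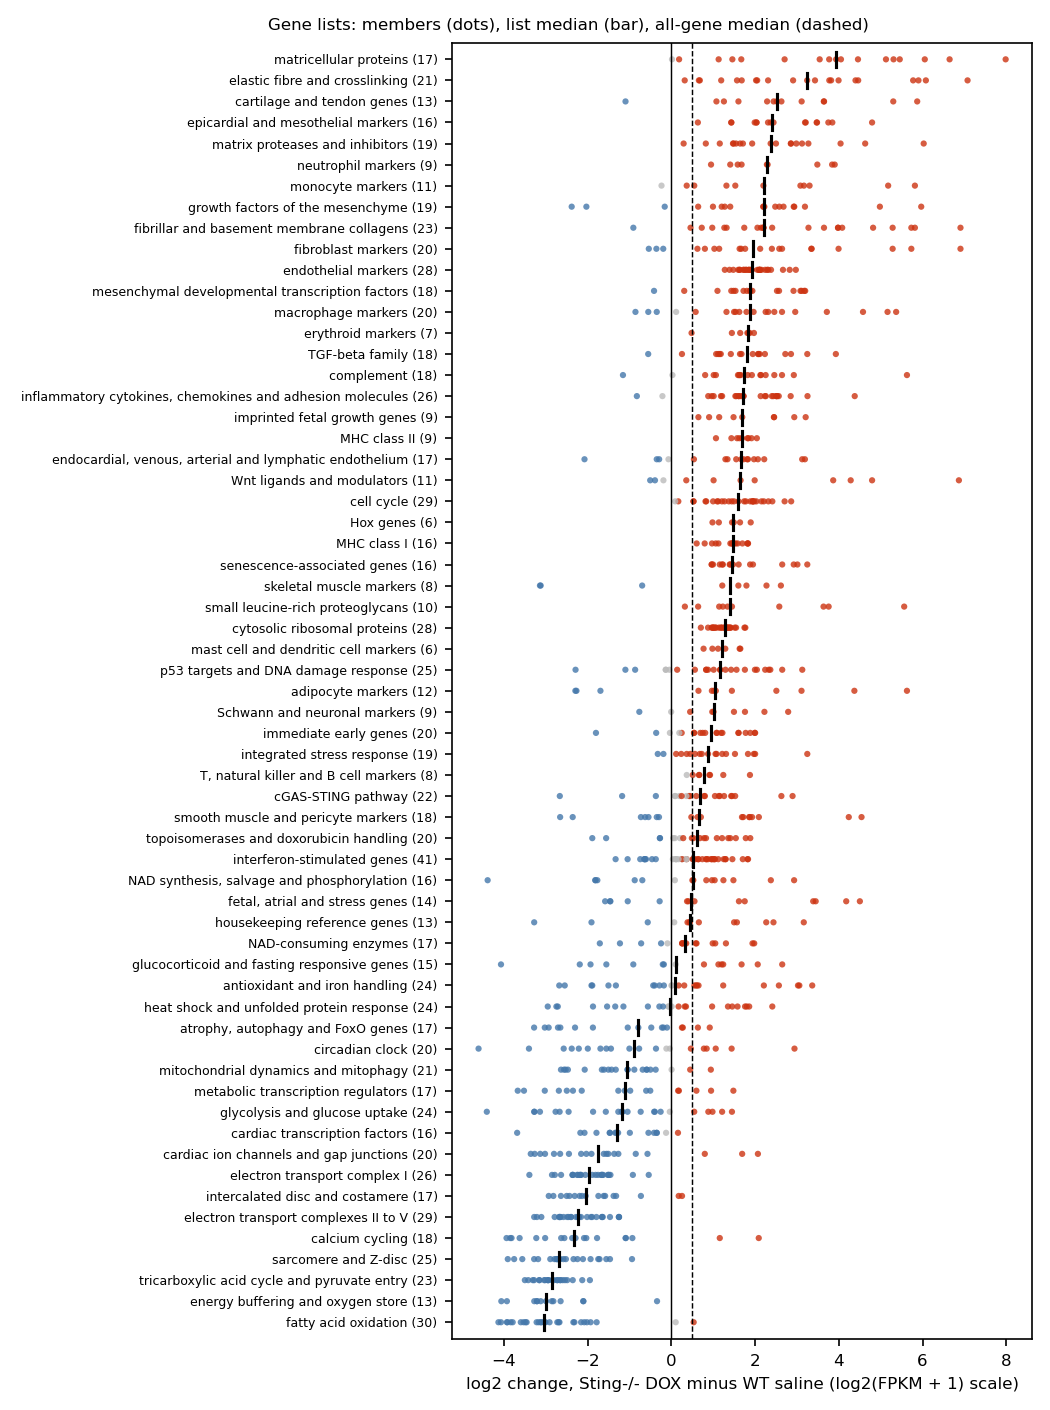
Log2 change (Sting-/- DOX minus WT saline, log2(FPKM + 1) scale) of every tested member (dots, red higher, blue lower, grey not called) of the lists with 6 or more tested members, ordered by list median (black bar), with the number tested in brackets. Fatty acid, energy buffering, tricarboxylic acid cycle, sarcomere and calcium cycling genes lie at the bottom, matricellular and elastic fibre genes at the top, and the dashed line is the all-gene median of 0.50.

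Markers of the cells around the cardiomyocytes were higher. Of 20 fibroblast markers, 17 rose and 3 fell. Beside Col1a1, the defining genes had smaller values of change. Pdgfra went from 5.56 to 9.09 FPKM (0.62), Tcf21 from 6.35 to 21.7 FPKM (1.63) and Dcn, decorin, from 385 to 851 FPKM (1.14), and of these Pdgfra was 0.12 with median-ratio scaling. Dpep1 and Gsn fell. Clec3b was called lower at -0.20, and was not called without saline library 1 or without Sting-/- DOX library 2 or 3 (limma adjusted p = 0.107, 0.0833 and 0.0845). All 28 endothelial markers rose, with changes from 1.27 to 2.97 on the log2 scale and a median of 1.92. Their summed level was 1938 to 2038 FPKM in the saline libraries, 1657 to 1818 FPKM in the WT DOX libraries and 8108 to 8667 FPKM in the Sting-/- DOX libraries. Cdh5, VE-cadherin, was at 53.04, 53.2 and 53.7 FPKM in the saline libraries and 191, 200.2 and 209 FPKM in the Sting-/- DOX libraries. That is 3.75-fold higher (SE 0.0407 on the log2 scale, limma adjusted p = 4.31e-11), while WT DOX libraries held 47.5, 51.2 and 47.4 FPKM. Pecam1 went from 58.8 ± 0.429 to 183 ± 6.73 FPKM, Cldn5, the claudin of tight endothelium, from 10.97 ± 1.05 to 83.9 ± 8.99 FPKM and the endothelial factor Sox18 from 22.5 ± 1.95 to 183 ± 12.4 FPKM. Red cell genes also moved in this direction, Hba-a1, a haemoglobin chain whose reads can be shared with Hba-a2, from 786 ± 57.8 to 3083 ± 184 FPKM and Alas2, of haem synthesis, from 6.27 to 25.01 FPKM, and all 7 tested erythroid markers were higher, with a summed level of 2471 to 2567 FPKM in the saline libraries, 1513 to 1656 FPKM in the WT DOX libraries and 8508 to 9731 FPKM in the Sting-/- DOX libraries. The part of blood content in the endothelial rise was not tested. In the list of endocardial, venous, arterial and lymphatic genes, 13 of 17 rose, Plvap, of fenestrated vessels, from 5.83 to 61.4 FPKM and Hey1, an arterial Notch target, from 4.16 to 22.9 FPKM. Prox1, shared by cardiomyocytes and lymphatics, and Lyve1 fell, and Hey2 was not called, although it was called lower after median-ratio scaling (-0.47) and quantile normalization (-0.66).

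Mural cells gave a mixed picture, with 11 of 18 smooth muscle and pericyte markers higher and 7 lower. Genes of the smooth muscle contractile apparatus led the rises, Tagln from 13.8 ± 1.17 to 342 ± 9.62 FPKM, Cnn1, calponin, from 1.203 ± 0.259 to 40.5 ± 5.02 FPKM, Acta2 from 106 ± 17.2 to 401 ± 13.6 FPKM and Myh11 from 4.91 to 24.2 FPKM. Abcc9, a pericyte and cardiomyocyte channel subunit, Synpo2 and Des, desmin, fell. All 16 tested epicardial and mesothelial markers, of 18 measured, were higher. Msln, mesothelin, was at 0.75, 1.30 and 0.75 FPKM in the saline libraries and 28.2, 26.4 and 25.04 FPKM in the Sting-/- DOX libraries. The groups did not overlap, and the other defining genes Upk3b and Wt1 went from 1.32 to 19.9 FPKM and from 1.83 to 14.4 FPKM. The keratin Krt19 went from 0.343 to 17.0 FPKM. It passed the filter on low values only through the Sting-/- DOX libraries, so the count of this list is a description only.

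Most macrophage markers rose, and several of macrophages resident in the heart fell. Of 20 tested, 16 rose, 3 fell and 1 was not called. Trem2, a lipid-sensing receptor of macrophages in injured tissue, was at 1.69, 2.65 and 2.96 FPKM in the saline libraries and 125, 114 and 123 FPKM in the Sting-/- DOX libraries. WT DOX libraries held 30.4, 33.2 and 30.4 FPKM, so the Sting-/- DOX libraries were the highest of the 9. Gpnmb went from 0.380 to 31.8 FPKM, Lgals3, galectin 3, from 3.83 ± 0.195 to 199 ± 6.70 FPKM and Apoe from 305 ± 11.1 to 4008 ± 76.2 FPKM. The general markers Adgre1 and Csf1r went from 7.203 to 27.4 FPKM and from 16.5 to 52.9 FPKM. Cd163, Timd4 and Lyve1, genes of macrophages resident in the heart, fell, with log2 changes of -0.86, -0.55 and -0.35, and Folr2, another, was not called (19.5 and 21.0 FPKM).

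Markers of recruited monocytes and neutrophils were mostly higher than in saline, and Ly6c2 was not. Ly6c2, a marker of inflammatory monocytes, was at 4.47, 3.12 and 4.29 FPKM in the saline libraries and 4.08, 3.78 and 2 FPKM in the Sting-/- DOX libraries. These overlap, the gene was not called (log2 change -0.24, 95% interval -0.66 to 0.19, limma adjusted p = 0.258), and WT DOX libraries held 109.8, 150.2 and 129 FPKM. With median-ratio scaling Ly6c2 was lower (-0.68, limma adjusted p = 0.00612). Reads of Ly6c2 can be shared with its near copy Ly6c1. Arg1 went from 0.183 ± 0.214 to 9.53 ± 0.753 FPKM, with 159 FPKM in WT DOX, and Ccr2, the receptor for Ccl2, from 1.203 to 17.7 FPKM, with 30.6 in WT DOX. Of 11 tested monocyte markers, of 13 measured, 10 were higher than in saline, among them Hp, haptoglobin, from 0.397 to 49.5 FPKM and Plac8 from 3.00 to 37.9 FPKM. Without the filter on low values 11 of the 13 were higher. All 9 tested neutrophil markers, of 13 measured, were higher than in saline. The list summed to 9.89 to 11.3 FPKM in saline, and members this low pass the filter mainly through the Sting-/- DOX libraries. Without the filter on low values all 13 were higher. S100a8, a calgranulin, was at 0.77, 2.02 and 1.54 FPKM in the saline libraries and 34.8, 30.0 and 34.9 FPKM in the Sting-/- DOX libraries. WT DOX libraries held 81.6, 104 and 94.5 FPKM. S100a9 followed, from 2.22 to 35.3 FPKM, and Csf3r went from 1.53 to 11.3 FPKM. Lymphocyte markers were low throughout, with 7 of 8 tested higher and 18 measured. After median-ratio scaling 5 of the 8 were higher and after quantile normalization 3. Without the filter on low values 9 of the 18 were higher. Jchain, of plasma cells, went from 0.183 to 3.34 FPKM and Cd79a, a B cell marker, from 0.823 to 2.41 FPKM, which was not called after quantile normalization (limma adjusted p = 0.0569). The T cell genes Cd3e and Cd3d were under 1 FPKM in the mean of both groups. All 6 mast and dendritic cell markers that passed the filter on low values, of 12 measured, were higher, Itgax from 0.407 to 3.34 FPKM and Cd209a from 0.163 to 2.66 FPKM. Itgax and Cd209a passed only through the Sting-/- DOX libraries, so the count is a description only. Without the filter 8 of the 12 were higher and 0 lower.

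Of 26 inflammatory mediators 24 rose, and the median was 1.72. Ccl2, the main monocyte attractant, was at 3.61, 5.14 and 4.90 FPKM in the saline libraries and 11.6, 11.8 and 11.9 FPKM in the Sting-/- DOX libraries. The groups did not overlap, and WT DOX libraries held 120.3, 145 and 129.8 FPKM. Ccl8, from the same family, went from 1.33 ± 0.338 to 47.3 ± 3.60 FPKM, with 29.7 FPKM in WT DOX, Cxcl16, a scavenger receptor and chemokine, from 7.76 ± 0.691 to 82.3 ± 2.12 FPKM, Cxcl12, a stromal chemokine, from 34.4 ± 1.19 to 203 ± 1.04 FPKM and Il33, an alarmin, from 1.76 to 18.9 FPKM. Ccl11, eotaxin, fell from 2.80 to 1.14 FPKM, and Il6ra was not called, although it was called lower after median-ratio scaling (-0.50) and quantile normalization (-0.75). Of 18 complement genes 16 rose, C1qa from 104 ± 3.01 to 575 ± 19.7 FPKM and Cfd, factor D or adipsin, from 0.437 ± 0.158 to 69.8 ± 4.15 FPKM. Cd59a, which guards cells against complement, fell from 77.8 to 34.4 FPKM, and C7 was not called.

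Genes of the cGAS-STING pathway were split much as all genes were. Of 22 genes, 15 rose, 3 fell and 4 were not called, with a median of 0.69 beside 0.50 for all genes. The counts and the median include Sting1, the deleted gene, whose fall (log2 change -2.67) is set by the genotype. With median-ratio scaling 11 rose and 7 fell, with a median of 0.16. Cgas, the DNA sensor, was at 0.52, 0.62 and 0.94 FPKM in the saline libraries and 2.18, 2.97 and 2.29 FPKM in the Sting-/- DOX libraries. The levels are low but do not overlap, and WT DOX libraries held 2.18, 2.33 and 2.39 FPKM. Ikbke, a kinase related to TBK1, was at 0.78, 0.64 and 0.83 FPKM in the saline libraries and 10.2, 9.84 and 9.41 FPKM in the Sting-/- DOX libraries. Irf3 went from 21.8 ± 0.964 to 60.5 ± 3.81 FPKM, Rela, the p65 subunit of NF-kappaB, from 17.5 to 49.3 FPKM and Enpp1, which breaks down the cGAS product, from 1.31 to 16.2 FPKM. Tbk1 went from 8.26 to 11.6 FPKM, a change of 0.45 that was -0.07 after median-ratio scaling and -0.04 after quantile normalization. Mavs, the adaptor of RNA sensing, fell from 32.6 ± 1.66 to 13.9 ± 0.780 FPKM, and Trim56 fell (log2 change -0.37). Irf7, the interferon-induced amplifier, was not called at 85.3, 92.1 and 87.8 FPKM in the saline libraries and 90.8, 98.2 and 94.3 FPKM in the Sting-/- DOX libraries (log2 change 0.09, 95% interval -0.01 to 0.19, limma adjusted p = 0.0692). Irf7 was called without saline library 2 or Sting-/- DOX library 1 (limma adjusted p = 0.0316 and 0.0345). Trex1 and Zbp1 were not called either.

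Interferon-stimulated genes split in both directions. Promoter sequences of 5 of them are shown because the split runs through genes that carry the same element, the interferon-stimulated response element searched here as GAAANNGAAA on both strands. Capitals mark the matches in the 250 bases before each gene's start in RefSeq (build GRCm38.p6).
Ifit1 (chr19:34640639-34640888, strand +): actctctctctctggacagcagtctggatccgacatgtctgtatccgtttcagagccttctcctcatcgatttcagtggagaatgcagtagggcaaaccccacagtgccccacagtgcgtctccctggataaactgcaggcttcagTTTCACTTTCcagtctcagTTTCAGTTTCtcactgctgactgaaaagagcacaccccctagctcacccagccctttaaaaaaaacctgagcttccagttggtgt
Ifit3 (chr19:34583279-34583528, strand +): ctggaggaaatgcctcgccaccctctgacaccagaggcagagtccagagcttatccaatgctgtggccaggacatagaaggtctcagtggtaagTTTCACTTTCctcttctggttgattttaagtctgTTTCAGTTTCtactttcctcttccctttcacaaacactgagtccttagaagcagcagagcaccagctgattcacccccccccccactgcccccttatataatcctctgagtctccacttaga
Isg15 (chr4:156200819-156201068, strand -): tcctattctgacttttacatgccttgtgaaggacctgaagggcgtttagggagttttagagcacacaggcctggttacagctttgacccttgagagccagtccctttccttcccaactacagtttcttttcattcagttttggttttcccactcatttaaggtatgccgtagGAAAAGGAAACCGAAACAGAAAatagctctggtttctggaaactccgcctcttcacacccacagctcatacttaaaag
Cxcl10 (chr5:92348890-92349139, strand -): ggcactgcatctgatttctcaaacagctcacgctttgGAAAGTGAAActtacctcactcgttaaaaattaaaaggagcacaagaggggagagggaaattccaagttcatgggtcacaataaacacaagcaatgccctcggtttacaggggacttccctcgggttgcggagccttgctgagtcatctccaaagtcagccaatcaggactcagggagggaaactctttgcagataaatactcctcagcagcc
Gbp2 (chr3:142620413-142620662, strand +): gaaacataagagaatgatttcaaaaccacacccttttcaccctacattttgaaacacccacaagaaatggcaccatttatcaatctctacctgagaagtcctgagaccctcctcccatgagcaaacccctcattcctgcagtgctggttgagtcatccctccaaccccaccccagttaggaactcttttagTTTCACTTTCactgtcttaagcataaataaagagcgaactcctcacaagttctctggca
Ifit1 has matches that start 104 and 85 bases before the gene start, Ifit3 at 156 and 122, Isg15 at 78, 72 and 66, overlapping one another, Cxcl10 at 213 and Gbp2 at 59. The element was found in 2.71% of the 10015 promoters of tested genes and in 17 of the 31 list members with a promoter in the table. It was in 5 of 6 that fell, 11 of 18 that rose and 1 of 7 that were not called. A match is a description, and the window shows nothing of sites elsewhere.

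Of 41 interferon-stimulated genes, 24 were higher, 9 lower and 8 not called, with a median of 0.52 beside 0.50 for all genes. With median-ratio scaling 16 were higher and 16 lower, and with quantile normalization 19 and 10. The count also depended on 1 control library. Without saline library 2, 31 were higher and 9 lower, and the median was 0.65. Ifit1, which binds foreign RNA caps, was at 33.1, 59.9 and 42.7 FPKM in the saline libraries and 15.7, 18.1 and 16.8 FPKM in the Sting-/- DOX libraries. The groups did not overlap and the fall was 2.68-fold (log2 change -1.33, SE 0.17, limma adjusted p = 2.73e-05), while WT DOX libraries held 62.4, 131 and 99.8 FPKM. Igtp, an interferon-induced GTPase, went from 77.8 ± 11.4 to 45.7 ± 1.03 FPKM. Ifit3, whose reads can be shared with Ifit3b, was at 42.8, 58.5 and 49.5 FPKM in the saline libraries and 34.95, 35.5 and 37.2 FPKM in the Sting-/- DOX libraries, also without overlap (log2 change -0.46, limma adjusted p = 8.32e-04). Isg15, a ubiquitin-like modifier, was at 26.9, 40.2 and 29.3 FPKM in the saline libraries and 34.9, 46.0 and 43.1 FPKM in the Sting-/- DOX libraries. These overlap, and the call of a rise (0.36, limma adjusted p = 0.0321) did not hold its sign with median-ratio scaling (-0.19). Isg15 was not called without saline library 1 or 3 (limma adjusted p = 0.123 and 0.0977) or without Sting-/- DOX library 2 or 3 (limma adjusted p = 0.104 and 0.0925). Cxcl10 went from 3.52 ± 0.920 to 5.67 ± 0.828 FPKM (0.57, and 0.11 with median-ratio scaling, where it was not called). Gbp2, a guanylate-binding protein, was at 20.4, 25.2 and 23.03 FPKM in the saline libraries and 56.4, 55.1 and 61.2 FPKM in the Sting-/- DOX libraries. All of its Sting-/- DOX libraries were above all saline libraries, and WT DOX libraries held 37.8, 67.8 and 53.5 FPKM. Psmb9 and Psmb8, subunits of the immunoproteasome, went from 19.6 ± 1.996 to 72.0 ± 3.15 FPKM and from 23.2 ± 2.34 to 84.2 ± 3.79 FPKM, Tap1, a peptide transporter, from 14.6 to 41.7 FPKM and Ly6e from 265 ± 28.9 to 861 ± 14.7 FPKM. Irgm1 and Lgals3bp were not called.

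**Figure D4:**
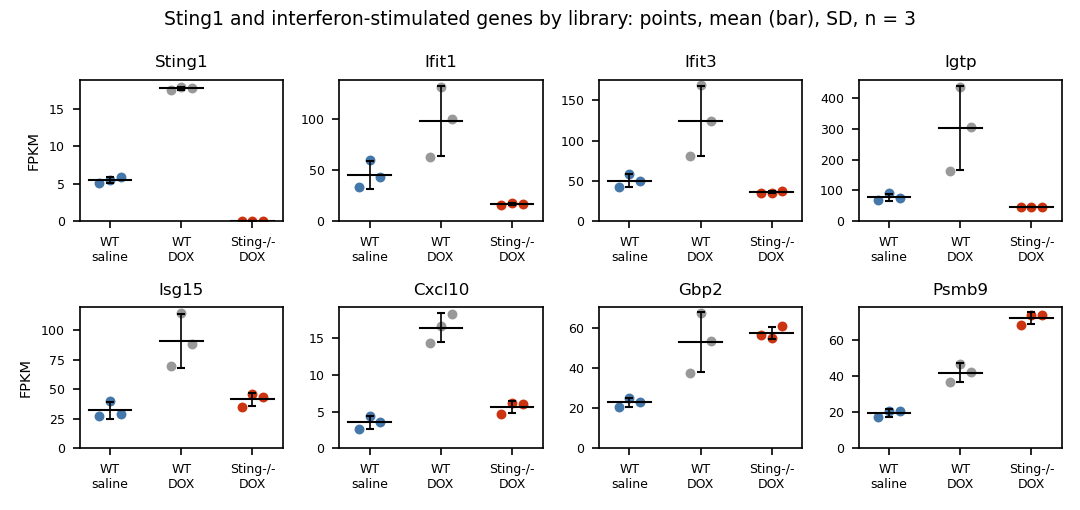
FPKM of Sting1 and 7 interferon-stimulated genes in each library of WT saline, WT DOX and Sting-/- DOX (points), with the mean (bar) and SD (error bar) of 3 libraries, linear axes from 0. Ifit1, Ifit3 and Igtp are lowest in Sting-/- DOX, Gbp2 and Psmb9 are above saline there, and Isg15 overlaps saline.

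Antigen presentation rose as a block. All 9 MHC class II genes and all 16 MHC class I genes were higher, and with median-ratio scaling 15 of the class I genes still were. H2-D1, a classical class I heavy chain, went from 247 ± 2.81 to 803 ± 32.6 FPKM and H2-Q7 from 16.5 to 60.6 FPKM, although class I genes are near copies that counting can confuse. H2-Ab1, a class II chain, went from 63.2 ± 2.06 to 263 ± 5.79 FPKM and Cd74, the invariant chain, from 174 ± 4.57 to 626 ± 7.82 FPKM.

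NAD metabolism, which the title of the series ties to CD38, changed in both directions. Of 17 NAD-consuming enzymes, 12 were higher and 4 lower, near the shares of all genes (63.0% higher and 25.6% lower). Their median was 0.31 beside 0.50, and with median-ratio scaling 5 were higher and 9 lower. Cd38, the main NAD glycohydrolase of tissues, was at 5.94, 6.88 and 6.13 FPKM in the saline libraries and 25.7, 28.0 and 27.2 FPKM in the Sting-/- DOX libraries. It was 4.27-fold higher with no overlap (log2 change 1.94, SE 0.0639, limma adjusted p = 8.24e-10), and WT DOX libraries held 8.88, 9.03 and 8.30 FPKM. Bst1, its relative CD157, was at 0.73, 1.31 and 1.12 FPKM in the saline libraries and 3.51, 4.90 and 3.77 FPKM in the Sting-/- DOX libraries, with 8.84, 9.42 and 9.4 FPKM in WT DOX. Sirt7, a nucleolar sirtuin, rose from 7.14 to 31.1 FPKM and Sirt6 from 5.69 to 12.8 FPKM. Sirt5 and Sirt3, sirtuins of the mitochondrion, fell from 27.8 ± 1.44 to 7.82 ± 0.626 FPKM and from 27.6 ± 1.85 to 11.2 ± 1.01 FPKM. Parp1, the main DNA-damage poly(ADP-ribose) polymerase, fell from 16.9 ± 0.745 to 9.82 ± 0.261 FPKM. Sarm1, the axonal NAD hydrolase, was under 0.1 FPKM in the mean of both groups and was not tested.

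Among 16 genes of NAD synthesis and phosphorylation, 9 were higher and 6 lower, and 7 and 7 with median-ratio scaling. Their median was 0.51 beside 0.50 for all genes. Nampt, the rate-limiting enzyme of NAD salvage, was at 67.7, 65.7 and 68.6 FPKM in the saline libraries and 18.7, 18.0 and 18.6 FPKM in the Sting-/- DOX libraries. It was 3.66-fold lower (log2 change -1.82, SE 0.0419, limma adjusted p = 6.76e-11), with 50.4, 69.3 and 56.8 FPKM in WT DOX. Nmrk2, the muscle nicotinamide riboside kinase, was at 10.6, 9.83 and 9.73 FPKM in the saline libraries and 14.8, 15.5 and 14.3 FPKM in the Sting-/- DOX libraries. The groups do not overlap but lie close, against 333, 255 and 279 FPKM in WT DOX, and with median-ratio scaling the change was -0.01. Nmnat3, a mitochondrial enzyme that makes NAD, fell from 10.7 to 2.33 FPKM. Nnmt, which methylates nicotinamide, rose from 3.52 ± 0.821 to 33.1 ± 1.34 FPKM, Pnp from 7.16 ± 0.130 to 41.4 ± 2.89 FPKM and Nadk, which makes NADP, from 15.1 ± 0.398 to 43.9 ± 1.78 FPKM. Nnt, the mitochondrial transhydrogenase, had one of the deepest falls of the comparison, from 317 ± 15.2 to 14.1 ± 0.0929 FPKM, with 78.5 FPKM in WT DOX. C57BL/6J mice are known to carry a deletion within Nnt, the labels give no strain, and its part in this value was not tested.

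Cell cycle genes rose in 28 of 29 cases, from low levels. Top2a, the topoisomerase II of dividing cells, went from 1.58 ± 0.330 to 8.46 ± 0.269 FPKM, Birc5, survivin, from 2.11 to 19.1 FPKM, Ube2c from 3.97 to 35.1 FPKM and Ccna2, cyclin A2, from 1.52 to 12.4 FPKM. Cenpa was not called. Of 25 p53 targets and DNA damage genes, 19 rose, 3 fell and 3 were not called, and with median-ratio scaling 17 rose and 7 fell. Cdkn1a, the p21 inhibitor, was at 10.6, 13.6 and 11.1 FPKM in the saline libraries and 73.7, 81.4 and 80.8 FPKM in the Sting-/- DOX libraries. The WT DOX mean was 53.6 FPKM. Phlda3, a p53 target that restrains AKT, went from 8.42 ± 0.521 to 81.2 ± 2.63 FPKM and Bbc3, PUMA, from 2.02 to 13.3 FPKM. Other p53 targets fell, Ccng1 from 381 ± 16.2 to 76.9 ± 0.625 FPKM and Sesn1 from 53.8 to 24.6 FPKM, and Mdm2, the p53 ligase and target, was not called (24.8 and 23.9 FPKM) but was called lower after median-ratio scaling (-0.60) and quantile normalization (-0.39). All 16 senescence-associated genes were higher, Cdkn2b, p15, from 0.220 to 8.83 FPKM and Igfbp3 from 10.3 to 84.3 FPKM.

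Top2b, the topoisomerase II of non-dividing cells and the cardiac target of doxorubicin, was not called. It was at 17.8, 17.9 and 18.0 FPKM in the saline libraries and 19.2, 18.1 and 18.0 FPKM in the Sting-/- DOX libraries (log2 change 0.04, 95% interval -0.07 to 0.15, limma adjusted p = 0.423), and with median-ratio scaling it was -0.50 relative to a median gene. Top1 and Top1mt were not called either. In the list of topoisomerases and drug handling, 13 of 20 rose and 4 fell, with a median of 0.60 beside 0.50 for all genes. With median-ratio scaling 9 rose and 8 fell. Cbr3, a carbonyl reductase that acts on doxorubicin, rose from 1.68 to 8.28 FPKM, and the efflux pumps Abcb1b and Abcc5 rose from 2.03 to 7.05 FPKM and from 10.3 to 31.9 FPKM. Abcb8, a mitochondrial transporter, fell from 29.6 to 9.36 FPKM and Nqo1, a quinone reductase, from 37.6 ± 0.850 to 9.49 ± 1.72 FPKM.

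Stress genes changed in both directions. Of 19 genes of the integrated stress response, 17 rose, and with median-ratio scaling 10 did, Aldh18a1 and Phgdh, of proline and serine synthesis, from 3.98 to 18.9 FPKM and from 1.07 to 7.12 FPKM. In the heat shock and unfolded protein list, 11 rose, 10 fell and 3 were not called, and with median-ratio scaling 8 rose and 15 fell. The members that rose most serve the endoplasmic reticulum, Manf from 36.5 ± 1.23 to 135 ± 0.714 FPKM, Sdf2l1 from 2.59 to 18.1 FPKM and Xbp1 from 32.6 to 99.5 FPKM. Those that fell most are small heat shock proteins of muscle, Hspb7 from 1180.3 ± 29.1 to 151 ± 0.600 FPKM, Hspb8 from 423 ± 19.98 to 62.0 ± 3.29 FPKM and Hspb6 from 1189 ± 44.1 to 180.2 ± 5.65 FPKM. Hspa8, the constitutive cytosolic chaperone, and Hspa5, BiP, were not called, and both were called lower after median-ratio scaling (-0.65 and -0.64). Antioxidant and iron genes were split as 12 higher, 10 lower and 2 not called, and 6 and 14 with median-ratio scaling. The largest rises were those of the ferritin chain Ftl1, from 314 ± 7.36 to 3240.4 ± 48.5 FPKM, Hmox1, haem oxygenase 1, from 7.13 ± 0.529 to 66.6 ± 2.43 FPKM, and the extracellular enzymes Gpx3 and Sod3, from 138 ± 7.71 to 1127 ± 23.8 FPKM and from 24.97 ± 0.222 to 153 ± 3.69 FPKM. Fth1, the other ferritin chain, was not called at 1783, 1600.3 and 1704 FPKM in the saline libraries and 1678, 1729.5 and 1679 FPKM in the Sting-/- DOX libraries. The mitochondrial enzymes Sod2 and Prdx3 fell from 209.7 ± 3.65 to 31.9 ± 1.10 FPKM and from 232 ± 5.52 to 38.9 ± 2.41 FPKM, and Tfrc, the transferrin receptor, from 23.2 to 5.43 FPKM.

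Genes of the circadian clock changed in opposite directions. The core factor BMAL1 (Arntl) with CLOCK or NPAS2 binds E-boxes in the genes of its own repressors and of output factors such as Dbp. Of 20 genes, 12 fell, 6 rose and 2 were not called. Promoters of 2 members that fell, chosen after their values were seen, are shown because they hold the E-box, searched as CACGTG, with matches in capitals in the 250 bases before the RefSeq start (build GRCm38.p6).
Ciart (chr3:95882229-95882478, strand -): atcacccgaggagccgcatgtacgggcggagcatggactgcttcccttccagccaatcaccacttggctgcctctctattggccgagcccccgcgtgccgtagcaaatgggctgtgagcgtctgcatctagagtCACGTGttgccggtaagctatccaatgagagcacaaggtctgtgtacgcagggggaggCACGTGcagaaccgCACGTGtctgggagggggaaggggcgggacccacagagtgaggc
Tef (chr15:81802423-81802672, strand +): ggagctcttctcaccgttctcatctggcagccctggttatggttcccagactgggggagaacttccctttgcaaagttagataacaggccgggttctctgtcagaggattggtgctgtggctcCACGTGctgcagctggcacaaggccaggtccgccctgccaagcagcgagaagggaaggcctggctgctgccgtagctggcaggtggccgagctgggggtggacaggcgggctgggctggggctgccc
The matches start 116, 58 and 44 bases before the start of Ciart and 127 bases before that of Tef. CACGTG was in 8.4% of the 10015 promoters and in 5 of the 17 clock promoters in the table, 4 of 10 that fell and 1 of 6 that rose. Dbp, Nr1d1, Nr1d2 and Hlf, which fell more than Tef and Ciart, had no match in this window. A match is a description of letters, and its part in the falls was not tested.

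Arntl was at 1.30, 1.88 and 1.33 FPKM in the saline libraries and 17.2, 19.2 and 18.0 FPKM in the Sting-/- DOX libraries. It was 12.1-fold higher (log2 change 2.94, SE 0.0941, limma adjusted p = 6.65e-10), with 1.92, 1.81 and 1.99 FPKM in WT DOX. Npas2 went from 0.763 to 3.79 FPKM. Dbp, a PAR-domain output factor, had the deepest fall of all named genes, at 103, 78.9 and 94.7 FPKM in the saline libraries and 3.22, 2.69 and 2.53 FPKM in the Sting-/- DOX libraries. Nr1d1, REV-ERBalpha, the repressor of Arntl, went from 60.3 ± 5.41 to 4.81 ± 0.855 FPKM, Nr1d2 from 39.3 ± 0.317 to 5.78 ± 0.590 FPKM, Hlf from 9.77 to 1.07 FPKM, Tef from 60.5 ± 3.65 to 12.3 ± 0.221 FPKM and Ciart from 10.8 to 1.93 FPKM. Bhlhe40 and Rora were not called, and both were called lower after median-ratio scaling (-0.59 and -0.57) and quantile normalization (-0.38 and -0.69). The labels give no time of day for the collection of the hearts, and its part in these values was not tested.

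**Figure D5:**
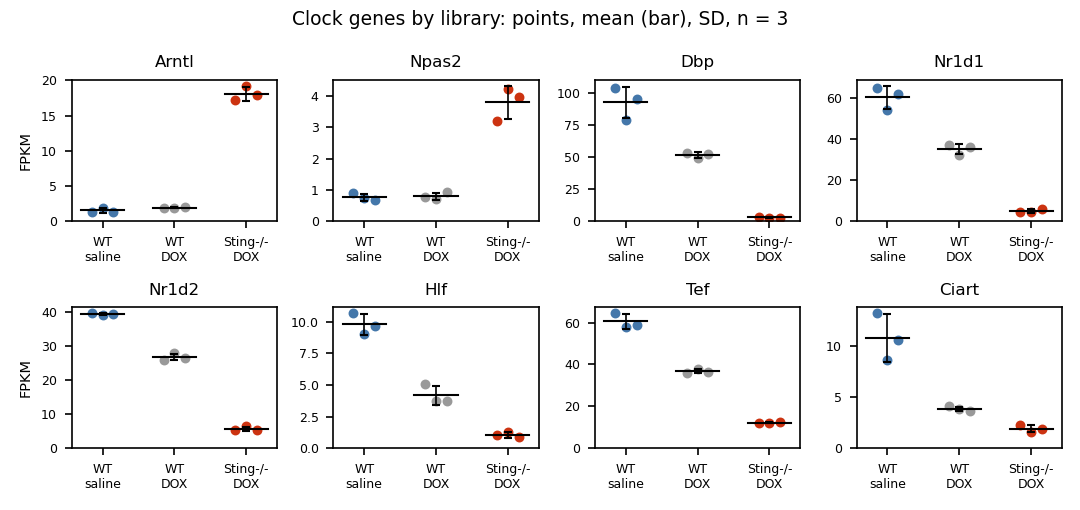
FPKM of 8 clock genes in each library of WT saline, WT DOX and Sting-/- DOX (points), with the mean (bar) and SD (error bar) of 3 libraries, linear axes from 0. Arntl and Npas2 are highest in Sting-/- DOX, where Dbp, Nr1d1, Nr1d2, Hlf, Tef and Ciart are lowest.

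Immediate early genes, which respond to growth signals and to handling of tissue, were higher in 16 of 20 cases and lower in 2. Among all genes 63.0% were higher and 25.6% lower. The list median was 0.94 beside 0.50 for all genes. Median-ratio scaling left 13 of the 20 higher and 4 lower, with a list median of 0.49. Quantile normalization gave the same counts and a list median of 0.50. Klf2 and Klf4, flow-responsive endothelial factors, rose from 32.2 ± 1.997 to 132 ± 0.140 FPKM and from 11.9 ± 0.976 to 46.4 ± 2.80 FPKM, and Ier2 from 13.0 to 54.5 FPKM. Nr4a1, an orphan nuclear receptor, fell from 52.7 ± 0.730 to 14.4 ± 0.368 FPKM, with 9.07 FPKM in WT DOX, and Fos was called lower at -0.36.

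Genes often used as references were not level. All 28 cytosolic ribosomal protein genes were higher, between 0.70 and 1.77 on the log2 scale, and they stayed higher under both other scalings (median-ratio and quantile). Rpl3, whose muscle counterpart is Rpl3l, went from 121 ± 0.621 to 415 ± 17.1 FPKM and Rps23 from 522 ± 15.9 to 1525 ± 46.2 FPKM. Of 13 reference genes, 9 were higher, 3 lower and 1 not called, near the 63.0% higher and 25.6% lower of all genes. Their median was 0.44 beside 0.50, and with median-ratio scaling 5 were higher and 6 lower. Actb, beta-actin, went from 177 ± 8.84 to 1590.3 ± 52.1 FPKM. Eef1a1, the elongation factor that cardiomyocytes replace with another form, went from 525 ± 5.28 to 2850.3 ± 6.41 FPKM.

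Among the 12 largest rises and 12 largest falls, a few genes stand outside the groups above. Sprr1a, a cornified envelope protein induced in stressed cardiomyocytes, went from 0.397 ± 0.246 to 168 ± 3.91 FPKM, with 159.9 FPKM in WT DOX. Saa3, an acute phase protein, went from 0.487 ± 0.101 to 100.7 ± 11.5 FPKM and C1qtnf3, a secreted adipokine of the C1q family, from 0.140 ± 0.0557 to 67.8 ± 5.11 FPKM, with 0.217 FPKM in WT DOX. Mylk4, a striated muscle kinase, fell from 57.5 ± 3.21 to 1.60 ± 0.0436 FPKM. The most abundant transcript of the Sting-/- DOX libraries, singled out after its values were seen, was listed as the predicted gene Gm20594, and what its reads are cannot be told from FPKM. It was at 3132, 3142 and 3021 FPKM in the saline libraries and 9042, 10367 and 9956 FPKM in the Sting-/- DOX libraries.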

How the data were processed

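RNA was measured in mouse heart, and the sample titles gave each library's group and number. The authors deposited 1 table per library with FPKM per gene ID, printed to 2 decimals. FPKM is relative to the mapped fragments of its own library, so large changes in abundant genes move all others. The build GRCm39 and the tools RSEM 1.2.12, HISAT2 2.0.4 and Bowtie2 2.2.5 are listed, without roles, per the submitters' processing notes. The annotation is not given in the sources used here.

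RefSeq (GRCm38.p6) paired 16825 of the 16873 gene IDs with a symbol, and 48 were not matched. The fit was limma 3.58.1 in R 4.3.3 on log2(FPKM + 1) over the 6 libraries, with a variance prior that follows the mean and Benjamini-Hochberg adjustment over the 12520 genes that averaged 1 FPKM or more. A run on simulated data changed 200 genes, far fewer than were called here. That run does not show how the fit behaves where most genes differ. A gene is called where the adjusted p is under 0.05. Intervals are at 95% from the same fit. Folds are ratios of mean FPKM, and log2 changes are on the log2(FPKM + 1) scale. Depth was estimated from the spacing of low FPKM values, of which 44.2% to 53.7% came within 0.1 of a whole read, so no counts were recovered. Other steps used Python 3.11.15, pandas 2.3.3, numpy 2.4.6, scipy 1.17.1 and matplotlib 3.10.9.

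The comparison and the 63 gene lists were chosen with earlier results of these data known. List medians cover the members that passed the filter on low values. Named genes are a fixed panel, the 12 largest rises and falls among called genes whose groups do not overlap, and per list up to 5 members in the main direction, 3 in the other and the 3 most abundant not called, plus the defining cell type markers, and a few of these are not reported here. Promoters came from RefSeq, 250 bases before 1 start per gene. Alternatives were other pseudocounts, filters, scalings, fits and libraries left out. The WT DOX libraries entered a fit only as an alternative.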

Additional observations from a re-analysis of the deposited data

How the results depend on the processing

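Leaving out 1 library at a time gave 7733 to 7785 genes higher and 3103 to 3158 lower, and 3857 to 3894 and 1390 to 1408 by at least 2-fold. Median-ratio scaling gave 5347 lower, 2167 higher by 2-fold and 2272 lower by 2-fold, and quantile normalization gave 5144 lower and 2227 higher by 2-fold. Both centre the libraries on one another by construction. The other alternatives left the 4 counts within 1.5 times. Same-numbered libraries did not deviate together (r = -0.03, -0.008 and -0.004), so the numbers do not pair them. With the replicate number as a block, 7864 genes were higher and 3183 lower, 3869 and 1399 by at least 2-fold.

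List medians that changed sign were -0.32 for adipocyte markers, -3.12 for skeletal muscle markers and -0.19 for glucocorticoid and fasting responsive genes with a minimum mean of 5 FPKM, -0.081 for fetal and stress genes, -0.0431 for interferon-stimulated genes, -0.20 for NAD-consuming enzymes, -0.0186 for NAD synthesis and salvage, -0.43 for antioxidant and iron handling, -0.37 for glucocorticoid and fasting responsive genes and -0.0782 for housekeeping reference genes with median-ratio scaling, and -0.10 for antioxidant and iron handling and -0.0337 for glucocorticoid and fasting responsive genes with quantile normalization. The heat shock median (-0.0294) was 0.00482 with scaling to TPM, 0.0534 without saline library 2, 0.0138 without Sting-/- DOX library 3 and 0.0225 with TPM scaling without haemoglobin genes, which was chosen after seeing the data. Genes whose log2 change took the other sign were, with median-ratio scaling, Alpl -0.40, C7 -0.45, Cenpa -0.47, Cpt1a -0.017, Folr2 -0.43, Fth1 -0.57, Gabarapl1 -0.29, Irf7 -0.47, Irgm1 -0.53, Isg15 -0.19, Jup -0.31, Lgals3bp -0.40, Mef2c -0.38, Myh7 -0.00875, Nmrk2 -0.00703, Nppb -0.20, Tbk1 -0.0736, Tnxb -0.51, Top1 -0.46, Top1mt -0.25, Top2b -0.50, Trex1 -0.46 and Vcl -0.38, and, with quantile normalization, Alpl -0.25, C7 -0.52, Cenpa -0.22, Folr2 -0.27, Mef2c -0.27, Tbk1 -0.0365, Tnxb -0.44, Top1 -0.30, Top1mt -0.35, Top2b -0.35, Trex1 -0.30 and Vcl -0.12. Genes not called that passed when 1 library was left out were Folr2, Irf7, Lgals3bp, Tbx20 and Zbp1 without saline library 2, Alpl and Top1mt without saline library 3, Hspa5, Il6ra, Irf7 and Tbx20 without Sting-/- DOX library 1, Zbp1 without Sting-/- DOX library 2, Top1mt without Sting-/- DOX library 3. With median-ratio scaling, genes newly called in the same direction were Axin2 -0.48, Bhlhe40 -0.59, Hey2 -0.47, Hspa5 -0.64, Hspa8 -0.65, Il6ra -0.50, Ly6c2 -0.68, Mdm2 -0.60, Rora -0.57 and Tbx20 -0.66. With median-ratio scaling, genes no longer called in the same direction were Cxcl10 0.11, Nr1h3 0.0811 and Pdgfra 0.12. With quantile normalization, genes newly called in the same direction were Axin2 -0.73, Bhlhe40 -0.38, Fth1 0.18, Hey2 -0.66, Hspa8 -0.23, Il6ra -0.75, Ly6c2 -0.81, Mdm2 -0.39, Rora -0.69 and Tbx20 -0.59. With quantile normalization, genes no longer called in the same direction were Cd79a 0.34, Cxcl10 0.0222, Gabarapl1 0.037, Isg15 0.0856, Nmrk2 0.0645, Nr1h3 0.11 and Pdgfra 0.10. Under the remaining alternatives 8 named genes crossed the threshold, with the same direction, namely Alpl, Axin2, Clec3b, Irf7, Isg15, Lgals3bp, Top1mt, Zbp1. Of 317 named genes tested, 278 kept their direction and call in all 16 alternatives. The cause of these changes was not tested.

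The design holds no Sting-/- saline libraries in what was analysed, and whether the libraries are separate animals was not tested. The depth estimate is lower in Sting-/- DOX, so genes near 1 FPKM are the least precise. With 3 libraries a group, spread is estimated with 4 residual degrees of freedom plus the prior.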

Other observations

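Fat cell genes gave opposite signs within 1 list. Of 12 tested adipocyte markers, of 17 measured, 9 rose and 3 fell, beside 63.0% higher and 25.6% lower among all genes. The defining genes Adipoq, adiponectin, and Cidec, a lipid droplet protein, went from 0.150 ± 0 to 8.94 ± 0.794 FPKM and from 0.0867 ± 0.0321 to 1.99 ± 0.535 FPKM. Both passed the filter on low values only through the Sting-/- DOX libraries, so the count is a description only. Plin1, a perilipin, was too low to test, at 0.0167 and 0.620 FPKM. Car3, the carbonic anhydrase of fat, went from 0.487 ± 0.0379 to 29.8 ± 2.13 FPKM. The members that fell, Plin4, Cidea and Pnpla2, are also used by oxidative muscle, and Plin4 went from 45.3 ± 0.478 to 8.46 ± 0.780 FPKM.

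Of 9 tested Schwann cell and neuronal markers, of 17 measured, 7 rose. The neuronal genes Uchl1 and Tubb3 went from 7.18 to 55.2 FPKM and from 0.673 to 6.81 FPKM. Dbh, which makes noradrenaline, fell from 2.05 to 0.797 FPKM. Of 8 tested skeletal muscle markers, of 17 measured, 5 rose and 3 fell, beside 63.0% higher and 25.6% lower among all genes. The summed list held 2878 to 2919 FPKM in saline, 1382 to 1506 FPKM in WT DOX and 340.4 to 374 FPKM in Sting-/- DOX. The members that fell were Eno3 and Ckm, also used by the heart, and Mybpc2, and with a minimum mean of 5 FPKM the list median was -3.12. Among the fast fibre genes that rose, Mylpf went from 0.867 to 8.10 FPKM and Tnnt3 from 0.473 to 7.86 FPKM, while Myh4, the myosin of fast fibres, was at 0.02 and 0.01 FPKM. Markers of thymus, thyroid, airway and gut summed to 0.93 to 1.71 FPKM in saline and 5.38 to 6.15 FPKM in Sting-/- DOX. Krt14 was the 1 member of that list that passed the filter on low values, going from 0.0267 to 2.68 FPKM.

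Genes that answer glucocorticoids and fasting were split, 7 higher, 7 lower and 1 not called. Sgk1, a kinase of the corticoid response, and Lcn2, lipocalin 2, rose from 20.6 ± 1.07 to 89.0 ± 2.66 FPKM and from 2.33 to 9.61 FPKM, and Zbtb16, a glucocorticoid target, fell from 9.68 to 1.34 FPKM. In the atrophy, autophagy and FoxO list 13 of 17 fell. Trim63, the muscle ubiquitin ligase MuRF1, went from 97.7 ± 1.96 to 11.9 ± 1.12 FPKM, and its relatives Trim55 and Trim54 from 59.7 ± 0.876 to 5.25 ± 0.452 FPKM and from 127 ± 9.76 to 18.6 ± 1.47 FPKM. Foxo1 rose from 5.67 to 11.6 FPKM, and Gabarapl1, of autophagy, was called higher at 0.27 and was -0.29 with median-ratio scaling.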
